A study of Mus musculus with 12 samples.

Results

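The smooth muscle contractile genes are a set of 9 genes that build or switch on the force-generating machinery of airway and vascular smooth muscle: Acta2, Actg2, Myh11, Tagln, Cnn1, Des, Smtn, Lmod1 and Myocd. They were chosen by name, and each was read from the probe set with a single gene symbol and the highest mean over all arrays. All 9 were measured, by 1 such probe set each, among 19937 genes on Affymetrix mouse Gene 1.0 ST arrays. The arrays carried RNA from whole lungs of Balb/c mice, 12 mice in 4 groups of 3, with 1 mouse on each array. The study modelled asthma with house dust mite (HDM) extract, a mixture of Der p and Der f allergens dosed in development units (DU). Control mice (numbers 1, 2 and 3) received PBS intranasally and no allergen. Eosinophilic mice (7, 8 and 9) were injected intraperitoneally 3 times, on days 0, 7 and 21, with 0.75 DU of each allergen on 1.5 mg of aluminium hydroxide. Their intranasal challenge with HDM followed on days 26 to 28. Mixed mice (15, 16 and 17) were given 0.75 DU of each allergen intranasally once a week, 4 times, without alum. Neutrophilic mice (23, 24 and 25) followed that weekly schedule at 7.5 DU of each allergen. The group names are those of the inflammation that the submitters assigned, and the eosinophilic model differs from the other two in route, adjuvant and timing. The labels used here give neither age nor sex.

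Contraction of smooth muscle rests on actin thin filaments sliding past thick filaments of smooth muscle myosin. Calcium entering the cell activates myosin light chain kinase, and the calcium sensitisation and cyclic GMP pathways lower or raise the activity of the opposing myosin phosphatase. Most contractile genes are switched on by serum response factor (SRF) bound to CArG boxes, with myocardin or the myocardin-related factors as coactivators. In lung these genes mark the muscle around bronchi and vessels. Thickening of the airway muscle is a known feature of chronic asthma, and several of the same genes are also used by pericytes and myofibroblasts.

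Promoter sequence is shown first, because SRF acts on contractile genes through CArG boxes. Acta2, Cnn1 and Myh11 were correlated across the 12 arrays (Pearson's r of 0.94 to 0.97 between pairs). The r was 0.78 to 0.87 without eosinophilic mouse 7, and 0.60 to 0.79 without mice 7, 9 and 23. Whether SRF has a part in this correlation was not tested. RefSeq promoters of GRCm38.p6, each 300 bases long (250 before the transcription start and 50 from it on), were matched for 5 of the 9 genes: Acta2, Cnn1, Des, Smtn and Lmod1. Only Acta2 among them held CArG boxes in this window, 2 of them, starting 84 and 34 bases before the start, each with 1 G or C in the 6-base core. Of the 16 other genes of the contractile apparatus with an entry, 6 held a box under the same rule, including Myl9, Vcl and Synm, whose values come later. Srf, the gene of the factor itself, held 2 boxes with none. Over all 32851 promoters, 9.98% held a CArG box allowing 1 G or C in the core, 0.822% held at least 2, and 1.63% held one with no G or C. The motif reads the same on both strands, and no match says only that these letters are not in the window. Stretches before the start follow, 5′ to 3′ on the gene's strand, with the boxes in capitals.
Acta2, chr19:34255374-34255487, minus strand: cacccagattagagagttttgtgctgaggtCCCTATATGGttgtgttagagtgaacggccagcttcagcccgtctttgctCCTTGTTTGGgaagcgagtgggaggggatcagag
Myl9, chr2:156775273-156775404, plus strand: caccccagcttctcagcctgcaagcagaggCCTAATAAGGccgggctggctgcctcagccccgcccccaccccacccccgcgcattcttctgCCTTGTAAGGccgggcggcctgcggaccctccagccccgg
Srf, chr17:46556185-46556274, minus strand: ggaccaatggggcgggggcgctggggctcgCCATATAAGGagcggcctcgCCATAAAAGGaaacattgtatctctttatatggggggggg
Vcl, chr14:20929148-20929210, plus strand: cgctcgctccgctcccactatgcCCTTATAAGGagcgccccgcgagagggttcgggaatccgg
Synm, chr7:67759942-67759992, minus strand: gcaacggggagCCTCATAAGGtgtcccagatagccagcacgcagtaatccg

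The arrays of 3 mice bear on every result below. The SD of log2 signal over all probe sets was 0.996 on the array of eosinophilic mouse 7, 1.52 on that of eosinophilic mouse 9 and 1.51 on that of neutrophilic mouse 23, against 1.77 to 2.04 on the other 9 arrays. Correlation with the median of the other arrays was 0.356 for mouse 7, 0.864 for mouse 9 and 0.868 for mouse 23, and 0.956 to 0.980 for the rest. Means of 9 epithelial markers, which whole lung should hold, lay between 9.45 and 10.26 on 11 arrays and at 6.24 on the array of mouse 7. Because mouse 7 stood apart, tests were run on all 12 arrays and again without that mouse. Where a sentence names no fit, values of the 9 contractile genes are from 12 arrays. Values of other genes are then from the fit without mouse 7, except in the closing sections, where they are from 12 arrays. Signals are log2 values, so a difference of 1 is a change by a factor of 2. Tests are limma contrasts, two-sided, and Benjamini-Hochberg adjustment ran over all 19937 genes with a threshold of 0.05. Values of different genes come from different probes and are not compared as levels. In whole lung, fewer smooth muscle cells and less RNA per cell cannot be told apart.

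None of the 9 contractile genes passed the threshold in any HDM model, on 12 arrays or without mouse 7. Over all genes the share past it on 12 arrays was 0.497% for eosinophilic against control, 0.471% for mixed and 2.11% for neutrophilic. Without mouse 7 these shares were 1.33%, 2.99% and 9.47%. On simulated data for mixed against control, the test recovered 3% of genes changed by 1 log2 unit on 12 arrays. Without mouse 7 it recovered 23% of them. For genes changed by 3 log2 units it recovered 90% and 97%. Missing the threshold therefore does not show that a contractile gene was unchanged. At an unadjusted limma p under 0.05, without mouse 7, 1 contractile gene passed in eosinophilic lung, 1 in mixed lung and 2 in neutrophilic lung, where 16.4%, 12.9% and 23.1% of all genes did. Smtn read lower on every HDM array than on any control array in the deposited values. Taking each model by itself, 15.9% (eosinophilic), 13.9% (mixed) and 20.4% (neutrophilic) of all genes had every value below control. Myocd read higher than any control in all eosinophilic and mixed mice, and Lmod1 in all eosinophilic mice. Of all genes, 11.1% (eosinophilic) and 9.16% (mixed) did so.

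**Figure D1:**
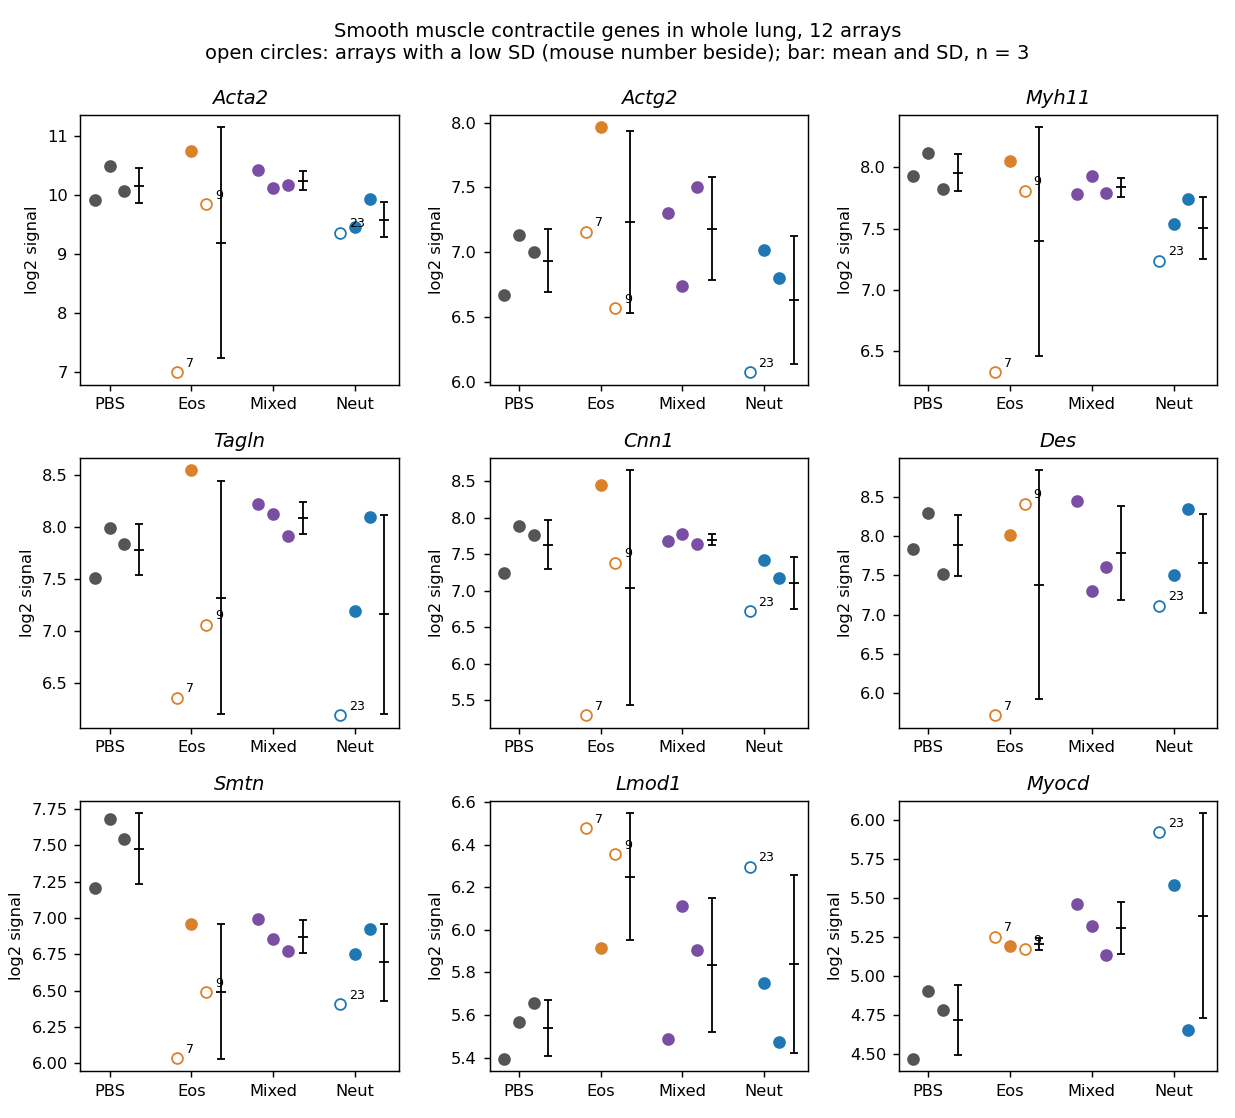
Log2 signal (y axis) of each of the 9 contractile genes on each array, by group (x axis: PBS control, eosinophilic, mixed, neutrophilic). Points are mice, bars the group mean and SD (n = 3), and open circles the 3 arrays of low SD, numbered by mouse. Smtn lies below the 3 control points in each HDM group, while Acta2, Myh11, Cnn1 and Des drop on the array of mouse 7.

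The actin and myosin genes come first. Acta2 encodes smooth muscle alpha-actin, the main thin-filament actin of airway and vascular muscle. In log2 signal it read 9.91, 10.49 and 10.07 in control mice 1 to 3, 7.00, 10.74 and 9.84 in eosinophilic mice 7 to 9, 10.42, 10.12 and 10.17 in mixed mice 15 to 17, and 9.36, 9.46 and 9.92 in neutrophilic mice 23 to 25. Mouse 7 was low by a wide margin, mouse 8 was the highest of all, and the neutrophilic values reached only the bottom of the control range. The mean was 10.16 ± 0.30 (SD, n = 3) in controls and 9.58 ± 0.30 (SD, n = 3) in neutrophilic mice, a log2 difference of -0.58 (SE 0.69, limma adjusted p = 0.739). With mouse 7 left out the SE of this Acta2 difference was 0.29, the 95% interval ran from -1.19 to 0.04 and the adjusted p was 0.253. In eosinophilic lung the Acta2 difference was -0.96 (adjusted p = 0.322) with mouse 7 and 0.13 (adjusted p = 0.849) without it, so that array set its sign. Mixed lung differed from control by 0.08 for Acta2 (95% interval without mouse 7 from -0.54 to 0.70).

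Actg2 encodes smooth muscle gamma-actin, the actin typical of gut muscle. Its log2 signals were 6.67, 7.13 and 7.01 in control mice, 7.16, 7.96 and 6.57 in eosinophilic mice, 7.31, 6.74 and 7.50 in mixed mice, and 6.07, 7.01 and 6.80 in neutrophilic mice, in order of mouse number. The ranges of all 4 groups overlapped, with mouse 8 highest and mouse 23 lowest. Differences of Actg2 from control were 0.30 in eosinophilic, 0.25 in mixed and -0.30 in neutrophilic lung, with limma adjusted p of 0.576, 0.9999 and 0.751 on 12 arrays. The eosinophilic difference in Actg2 was 1.41 with quantile normalization (adjusted p = 0.261) and -0.07 without mouse 8 (adjusted p = 0.879). Without mice 7, 9 and 23 it was 1.03, a value that rests on eosinophilic mouse 8 alone.

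Myh11 encodes the heavy chain of smooth muscle myosin, the motor of the thick filament. It read 7.93, 8.11 and 7.82 in control mice, 6.33, 8.05 and 7.81 in eosinophilic mice, 7.78, 7.93 and 7.79 in mixed mice, and 7.24, 7.54 and 7.74 in neutrophilic mice. All neutrophilic values lay below all control values, and mouse 7 was lower still. The neutrophilic mean of 7.50 ± 0.25 (SD, n = 3) was 0.45 below the control mean of 7.96 ± 0.15 (SD, n = 3) on the log2 scale, with limma adjusted p = 0.651 on 12 arrays and 0.266 without mouse 7. Without mouse 7, eosinophilic lung differed by -0.03 (SE 0.26, adjusted p = 0.963) and mixed lung by -0.12 (SE 0.23, adjusted p = 0.981).

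Proteins that sit on the thin filament form the next group. Tagln encodes transgelin (SM22), an actin-bundling protein that is an early marker of smooth muscle. Its values were 7.51, 7.99 and 7.84 in control mice, 6.36, 8.55 and 7.06 in eosinophilic mice, 8.22, 8.13 and 7.92 in mixed mice, and 6.19, 7.19 and 8.10 in neutrophilic mice. Neutrophilic mice spread over almost 2 log2 units, from the lowest value of all to one above the control range. The difference from control was -0.62 (SE 0.54, limma adjusted p = 0.651) in neutrophilic lung and 0.31 (adjusted p = 0.9999) in mixed lung. For Tagln the gap between the neutrophilic and mixed means was -0.93, with adjusted p = 0.9999 on 12 arrays and 0.686 without mouse 7. In eosinophilic lung Tagln differed by -0.46 with mouse 7 and 0.02 without.

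Cnn1 encodes calponin 1, which binds actin and restrains the myosin motor. Signals were 7.25, 7.88 and 7.76 in control mice, 5.29, 8.45 and 7.39 in eosinophilic mice, 7.68, 7.78 and 7.65 in mixed mice, and 6.72, 7.42 and 7.17 in neutrophilic mice. As with Acta2, mouse 7 was lowest and mouse 8 highest, and every neutrophilic value was below every mixed value. Against control the neutrophilic difference in Cnn1 was -0.52 (95% interval without mouse 7 from -1.19 to 0.14, limma adjusted p = 0.332) and the mixed difference 0.07. Eosinophilic lung went from -0.59 (adjusted p = 0.469) to 0.29 (adjusted p = 0.678) when mouse 7 was left out.

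Smtn encodes smoothelin, an actin-associated protein found in muscle that is fully contractile. Control mice read 7.21, 7.68 and 7.54, eosinophilic mice 6.03, 6.96 and 6.49, mixed mice 6.99, 6.85 and 6.77, and neutrophilic mice 6.41, 6.75 and 6.92. No HDM array reached the lowest control value, and the 3 models overlapped one another. The means were 7.48 ± 0.24 in controls, 6.49 ± 0.46 in eosinophilic, 6.87 ± 0.11 in mixed and 6.69 ± 0.26 in neutrophilic mice (SD, n = 3 each). In fold terms Smtn was lower by factors of 1.98, 1.52 and 1.72, with log2 differences of -0.98, -0.61 and -0.78 and limma adjusted p of 0.105, 0.676 and 0.209. Without mouse 7 the eosinophilic difference in Smtn was -0.75 (SE 0.28), and the adjusted p values were 0.208, 0.292 and 0.0661. With quantile normalization the Smtn differences were -0.33, -0.45 and -0.44. By percentile rank among the genes of its own array, Smtn in control mouse 1 (73.9) lay below eosinophilic mice 7 (75.5) and 9 (75.1) and mixed mouse 16 (75). Mice 7, 9 and 23, the low-SD arrays, held the 3 lowest Smtn values. With all 3 left out Smtn also missed the threshold, at -0.61 in mixed (adjusted p = 0.0755) and -0.64 in neutrophilic lung (adjusted p = 0.0681), where 9.32% and 16% of all genes passed. Limma's moderated F test for any difference among the 4 groups gave Smtn an adjusted p of 0.254, the smallest among the 9 genes, and 0.883% of all genes passed it. In each comparison 1 gene of 9 in eosinophilic, 1 in mixed and 2 in neutrophilic lung (Smtn, with Myh11 in the last) had all HDM values below all control values, where 15.9%, 13.9% and 20.4% of all genes did.

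Lmod1 encodes leiomodin 1, which seeds actin filaments in smooth muscle. It read 5.40, 5.57 and 5.65 in control mice, 6.48, 5.92 and 6.36 in eosinophilic mice, 5.49, 6.11 and 5.91 in mixed mice, and 6.30, 5.75 and 5.47 in neutrophilic mice. Its 3 highest values fell on the 3 arrays of low SD (mice 7, 9 and 23). The part of array SD in the Lmod1 result was not tested beyond a fit with it as a covariate and a fit without those arrays. In eosinophilic lung the Lmod1 difference was 0.71 (SE 0.30, limma adjusted p = 0.156) on 12 arrays, 0.60 (SE 0.31, adjusted p = 0.346) without mouse 7, 0.30 (adjusted p = 0.736) with array SD as a covariate and 1.38 (adjusted p = 0.248) with quantile normalization. Mixed and neutrophilic lung each differed by 0.30, with adjusted p of 0.9999 and 0.687. Without mice 7, 9 and 23, Lmod1 differed by 0.38 in eosinophilic lung, where only mouse 8 was left, and by 0.07 in neutrophilic lung (adjusted p = 0.901).

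Des encodes desmin, the intermediate filament of muscle, which heart and skeletal muscle also make. Its values were 7.84, 8.30 and 7.52 in control mice, 5.71, 8.02 and 8.41 in eosinophilic mice, 8.45, 7.30 and 7.61 in mixed mice, and 7.11, 7.50 and 8.34 in neutrophilic mice. The ranges of all groups overlapped, and mouse 7 was lowest by far. On 12 arrays the Des difference in eosinophilic lung was -0.50 (limma adjusted p = 0.545). Limma differences for Des without mouse 7 were 0.33 in eosinophilic, -0.10 in mixed and -0.23 in neutrophilic lung, with adjusted p of 0.694, 0.995 and 0.721, and that of neutrophilic lung changed sign with quantile normalization (0.09) or without mouse 23 (0.04). Cardiac markers (11 genes) averaged 8.22 on the array of mixed mouse 16 and 5.92 to 7.49 on the others, and mouse 16 had the lowest Des value of its group.

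Myocd encodes myocardin, the SRF coactivator that defines the smooth muscle and heart programmes. Controls read 4.47, 4.90 and 4.78, eosinophilic mice 5.25, 5.19 and 5.17, mixed mice 5.46, 5.32 and 5.13, and neutrophilic mice 5.92, 5.58 and 4.65. Eosinophilic and mixed values were all above the controls, while neutrophilic mouse 25 fell inside the control range and mouse 23 was highest. Myocd was 1.40-fold higher in eosinophilic, 1.50-fold in mixed and 1.59-fold in neutrophilic lung, with limma adjusted p of 0.287, 0.808 and 0.368. Without mouse 7 these p values were 0.495, 0.484 and 0.209. The Myocd signal was low, reaching a log2 of 5 on 8 of 12 arrays, where the other 8 genes did on all 12. Values all above control were seen for 2 of the 9 genes in eosinophilic lung (Lmod1 and Myocd) and 1 in mixed lung (Myocd), against 11.1% and 9.16% of all genes.

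**Figure D2:**
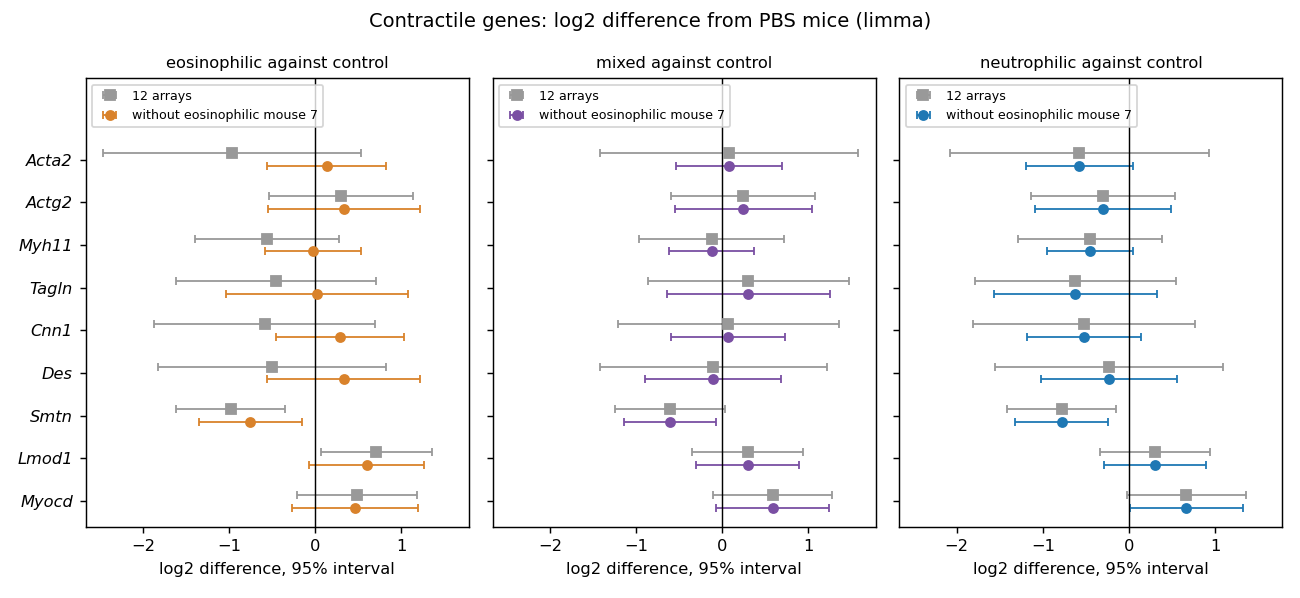
Log2 difference from PBS control mice (x axis) of the 9 contractile genes in each model, with 95% intervals from limma. Grey squares use all 12 arrays and coloured points leave out eosinophilic mouse 7; Smtn lies left of 0 in all 3 models, and the eosinophilic estimates of Acta2, Cnn1, Des and Tagln move across 0.

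Without mouse 7 the neutrophilic mean was the lowest of the 4 for Acta2, Actg2, Myh11, Tagln, Cnn1, Des and Smtn, while for Lmod1 and Myocd the control mean was lowest. No pair of groups differed beyond the threshold for any of the 9 genes in these fits. Every neutrophilic value lay below every mixed value for Acta2, Cnn1 and Myh11, which is 3 of 9 genes where 9.37% of all genes did so. Their limma differences between neutrophilic and mixed lung were -0.66, -0.60 and -0.33, with adjusted p of 0.9999 each on 12 arrays and of 0.648, 0.730 and 0.821 without mouse 7, and no gene of the 19937 passed (0% on either set of arrays). For neutrophilic against eosinophilic lung without mouse 7, Acta2 differed by -0.71 (adjusted p = 0.619) and Cnn1 by -0.81 (adjusted p = 0.589), where 0.191% of genes passed. On 12 arrays these differences had the other sign, at 0.39 for Acta2 (adjusted p = 0.812) and 0.064 for Cnn1 (adjusted p = 0.967), where 0.115% of genes passed. Mixed against eosinophilic lung had no contractile gene past the threshold, where 0.00502% of genes passed on 12 arrays and 0.0502% without mouse 7.

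The median over the 9 genes summarises each comparison. In log2 difference from control it was -0.50 in eosinophilic lung on 12 arrays and 0.29 without mouse 7, 0.08 in mixed lung and -0.45 in neutrophilic lung. The neutrophilic median ran from -0.45 to -0.058 over the processing settings and from -0.57 to -0.14 over single mice left out. Medians over all 19937 genes were 0.01, 0.00 and 0.05 on 12 arrays. In neutrophilic lung 7 of the 9 estimates were below 0, all but Lmod1 and Myocd, and in mixed lung 3 were. Without mice 7, 9 and 23, the neutrophilic differences were -0.64 for Smtn, -0.46 for Acta2, -0.33 for Cnn1 and -0.32 for Myh11. They were -0.14 for Tagln, -0.03 for Actg2, 0.04 for Des, 0.07 for Lmod1 and 0.40 for Myocd. The call in eosinophilic lung turned on single mice: without mouse 8, which leaves mice 7 and 9, both on low-SD arrays, 3 genes passed, namely Acta2 (-1.74, adjusted p = 0.0388), Smtn (-1.22, adjusted p = 0.00825) and Lmod1 (0.88, adjusted p = 0.0386). In that fit 41.5% of all genes passed. Acta2 (1.82, adjusted p = 0.0416) and Tagln (1.38, adjusted p = 0.0413) also passed in mixed against eosinophilic lung without mouse 8, where 30% of all genes did.

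Within the set, genes differed in how closely they followed the others. Over the 9 arrays without mice 7, 9 and 23, Pearson's r with the mean of the other 8 genes was 0.92 for Acta2, 0.84 for Cnn1, 0.75 for Tagln, 0.69 for Actg2 and 0.59 for Myh11. It was 0.18 for Des, 0.17 for Lmod1, 0.07 for Myocd and 0.0049 for Smtn. Single pairs on those arrays reached 0.87 for Acta2 with Tagln and 0.79 for Acta2 with Cnn1 and with Myh11. Among those first 5 genes the lowest were 0.25 for Actg2 with Myh11, 0.55 for Actg2 with Tagln, 0.57 for Myh11 with Tagln and 0.60 for Myh11 with Cnn1. Over all 12 arrays, with the low values of mouse 7 included, Cnn1 reached 0.97 and Acta2 0.94, and Lmod1 turned to -0.62. These coefficients describe arrays that share groups and normalization, and no p is attached. Outside the set, the genes most like the mean of the 9 over 12 arrays were Cystm1 (r = 0.952), Nfe2l2, Ppt1, Ybx1, Plrg1 and Snx3 (r = 0.945). Over the 9 arrays they were Ywhah (r = 0.883), Ciart, Mtres1, Dad1, Cmss1 and Eif2b3 (r = 0.851), so no gene was in both lists and no gene of the contractile apparatus was in either.

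Other genes of the smooth muscle machinery were read in the same lungs. The lists were set by role, with earlier results of these data known, and counts are of genes measured. Whether a list differed from the contractile genes was not tested. In neutrophilic lung without mouse 7, 3 of 19 other apparatus genes fell, 8 of 13 of calcium sensitisation and cyclic GMP signalling, 1 of 12 ion channels and calcium stores, 2 of 11 contractile agonist receptors, 4 of 16 transcriptional regulators and 1 of 15 non-muscle and striated paralogues. None rose, and over all genes 7.23% fell and 2.24% rose. List medians were -0.54, -1.18, -0.11, -0.36, -0.62 and -0.39, against -0.45 for the 9 contractile genes and 0.05 for all genes. On 12 arrays, where 1.45% of all genes fell, the counts were 1, 2, 0, 1, 0 and 0. Genes not analysed here included Rock2, Itpr1, Ednra, Adra1a and Actg1.

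**Figure D3:**
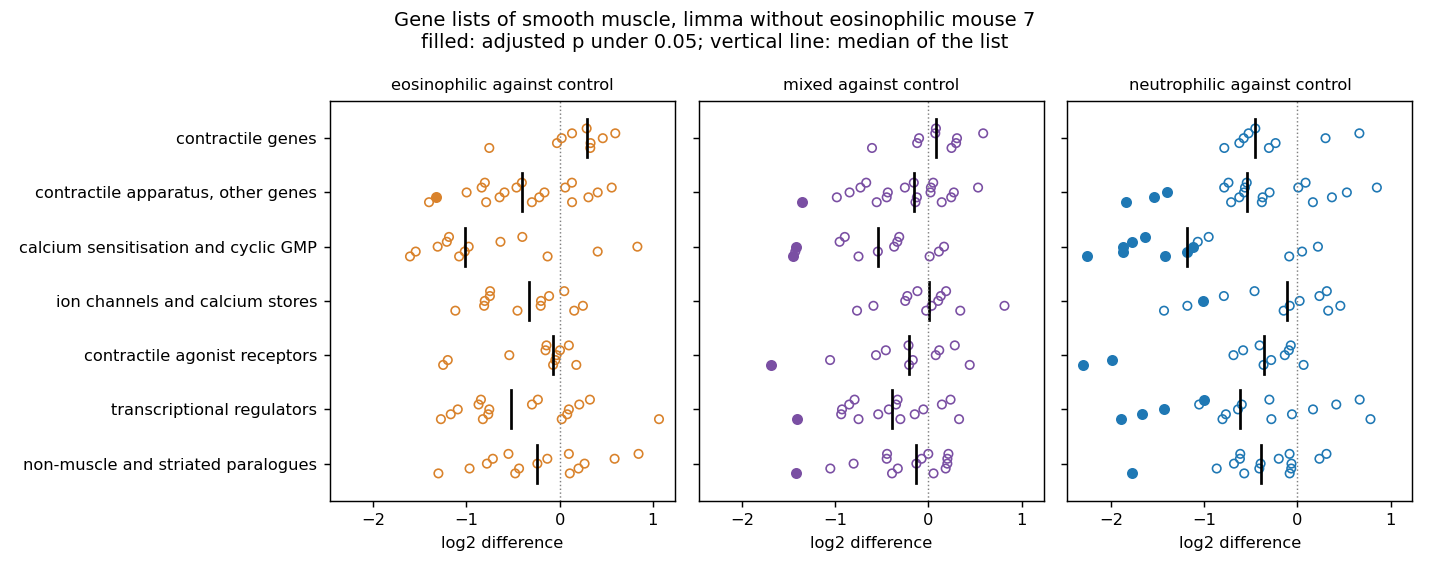
Log2 difference from PBS control (x axis) of each gene in the contractile set and 6 related lists (rows), in the 3 models, from limma without eosinophilic mouse 7. Filled points passed adjusted p under 0.05 and vertical lines are list medians; in neutrophilic lung 8 points of calcium sensitisation and cyclic GMP are filled and none of the contractile genes.

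Synm, whose promoter is printed above, encodes synemin, a partner of desmin in the muscle intermediate filament. It read 7.85, 7.46 and 7.15 in control mice, 6.60, 6.14 and 6.18 in eosinophilic mice, 6.12, 6.28 and 5.98 in mixed mice, and 5.79, 5.49 and 5.66 in neutrophilic mice. Every HDM array was below every control array. Synm was named for its small p in these same data, so this separation is not separate support. Of all genes, 15.9% had every eosinophilic value below control, 13.9% every mixed value and 20.4% every neutrophilic value. The fall of Synm in neutrophilic lung was -1.84 (limma adjusted p = 0.00813 on 12 arrays and 0.000689 without mouse 7), but the call was lost without control mouse 1 or control mouse 2 (adjusted p up to 0.0629). Without mouse 7, Synm also fell in mixed (-1.36, adjusted p = 0.00828) and eosinophilic lung (-1.33, adjusted p = 0.0322), which on 12 arrays missed the threshold (0.0511 and 0.0648), while without mouse 8 the eosinophilic p was 0.0130. With quantile normalization Synm missed the threshold in all 3 models, at -1.47 in neutrophilic (adjusted p = 0.199), -1.12 in mixed (adjusted p = 0.725) and -0.22 in eosinophilic lung (adjusted p = 0.802). Synm was the 1 apparatus gene of 19 to pass in eosinophilic and in mixed lung without mouse 7. There 0.883% (eosinophilic) and 1.57% (mixed) of all genes fell. Without mouse 8 it was among 11 of the 19 that fell in eosinophilic lung, where 23.6% of all genes fell. Vcl (vinculin) and Pgm5 (aciculin), proteins of the membrane plaques that anchor actin, fell in neutrophilic lung without mouse 7, with differences of -1.40 (adjusted p = 0.00743) and -1.53 (adjusted p = 0.00389), and missed the threshold on 12 arrays (0.336 and 0.0534). Mylk, the light chain kinase that starts contraction, had a difference of -0.74 (adjusted p = 0.117) and Myl9, a regulatory light chain with 2 CArG boxes above, one of -0.30 (adjusted p = 0.667).

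Of these 6 lists, calcium sensitisation and cyclic GMP had the largest share past the threshold in neutrophilic lung without mouse 7, at 8 of 13. Gucy1a1 encodes a subunit of soluble guanylate cyclase, the nitric oxide receptor that makes cyclic GMP. Its signals were 8.97, 8.72 and 8.70 in control mice, 5.93, 7.96 and 7.22 in eosinophilic mice, 7.54, 6.95 and 7.64 in mixed mice, and 6.91, 7.20 and 6.67 in neutrophilic mice. All HDM values lay below all control values, for a gene named by its small p in these same data. Model by model, 15.9% (eosinophilic), 13.9% (mixed) and 20.4% (neutrophilic) of all genes lay wholly below control. Gucy1a1 fell by 1.87 in neutrophilic lung (limma adjusted p = 0.0457 on 12 arrays, 0.00141 without mouse 7) and, without mouse 7, by 1.42 in mixed lung (adjusted p = 0.0145). Pde5a, the phosphodiesterase that degrades cyclic GMP, fell without mouse 7 by 1.78 in neutrophilic (adjusted p = 0.00181) and 1.46 in mixed lung (adjusted p = 0.0120). Prkg1, the kinase that cyclic GMP activates to relax muscle, fell by 1.42 in neutrophilic lung (adjusted p = 0.0241 on 12 arrays, 0.00520 without mouse 7). Ppp1cb, the catalytic subunit of myosin phosphatase, fell by 1.87 without mouse 7 (adjusted p = 0.00509). On 12 arrays only Gucy1a1 and Prkg1 of the 13 passed. The Gucy1a1 call was lost without any one control or neutrophilic mouse (adjusted p up to 0.218), and that of Prkg1 without any of these but control mouse 3 (up to 0.152). This count of 2 in neutrophilic lung became 0 without control mouse 1, control mouse 2 or any one of the neutrophilic mice, 1 without control mouse 3 and 8 without eosinophilic mouse 7. With mice 7, 9 and 23 all left out it was 9, where 10.2% of all genes fell. In mixed lung without mouse 7, 2 of the 13 fell, where 1.57% of all genes fell. In eosinophilic lung without mouse 7 none of the 13 passed, where 1.33% of all genes did. Without eosinophilic mouse 8 there were 10 lower and 2 higher in eosinophilic lung, against 23.6% and 17.8% of all genes.

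Among receptors that bring contractile signals, Chrm2, a muscarinic acetylcholine receptor, read 7.41, 7.85 and 7.07 in control mice, 5.41, 6.25 and 6.14 in eosinophilic mice, 6.55, 5.75 and 6.87 in mixed mice, and 5.39, 5.11 and 5.85 in neutrophilic mice. No HDM value reached the lowest control. Taken model by model, 15.9% (eosinophilic), 13.9% (mixed) and 20.4% (neutrophilic) of all genes lay wholly below control. Chrm2 fell by 1.99 in neutrophilic lung (limma adjusted p = 0.0187 on 12 arrays, 0.00223 without mouse 7), a call lost without control mouse 1, control mouse 2, neutrophilic mouse 24 or neutrophilic mouse 25 (highest adjusted p = 0.120). Ednrb, an endothelin receptor found on vascular cells, fell without mouse 7 by 2.30 in neutrophilic (adjusted p = 0.000530) and 1.68 in mixed lung (adjusted p = 0.00671). In neutrophilic lung Ednrb missed the threshold on 12 arrays. Over single mice left out, its adjusted p reached 0.248 in neutrophilic and 0.871 in mixed lung. Chrm3, the muscarinic receptor that triggers airway contraction, differed by -0.36 (adjusted p = 0.427), Agtr1a (angiotensin receptor) by -0.58 (adjusted p = 0.190) and Tbxa2r (thromboxane receptor) by -0.68 (adjusted p = 0.154). Of the channels and stores, Trpc6, a cation channel, fell by 1.02 without mouse 7 (adjusted p = 0.0185). Its adjusted p reached 0.67 over single mice left out. Pln (phospholamban, the brake on the calcium pump) had -1.43 (adjusted p = 0.0556) and Ano1, a chloride channel of smooth muscle, -1.18 (adjusted p = 0.0690), neither past the threshold. In eosinophilic lung no channel or receptor passed on 12 arrays or without mouse 7, where 0.497% and 1.33% of all genes did. Without mouse 8, 4 channels of 12 and 2 receptors of 11 were lower and 1 receptor higher. In that fit 23.6% of all genes were lower and 17.8% higher. Stim1, the sensor of the calcium store, had -1.19 on 12 arrays (adjusted p = 0.0904) and -1.12 without mouse 7 (adjusted p = 0.133). Without mouse 8 Stim1 had -1.45 and passed (adjusted p = 0.00667).

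Regulators of the contractile genes did not move as a block. Srf differed from control by 0.17 in neutrophilic lung (limma adjusted p = 0.738 without mouse 7). Mrtfa, a coactivator of SRF, differed by 0.42 (adjusted p = 0.273) and its relative Mrtfb by -0.64 (adjusted p = 0.263). Klf4, which represses smooth muscle genes, differed by -0.30 (adjusted p = 0.432). Foxf1, a lung mesenchyme and endothelial factor, fell by 1.89 (adjusted p = 0.000559), Tead1 by 1.66 (adjusted p = 0.00768) and Gata6 by 1.003 (adjusted p = 0.0309), all without mouse 7, and none of these passed on 12 arrays. Prdm6, a repressor made in smooth muscle, fell in mixed lung by 1.41 (adjusted p = 0.0346 on 12 arrays, 0.00684 without mouse 7), a call lost without any one of the control or mixed mice, and differed by -0.77 in neutrophilic lung (adjusted p = 0.0669 without mouse 7). Paralogues from other cells were set beside the contractile genes. Myh10, a non-muscle myosin, fell without mouse 7 by 1.77 in neutrophilic (adjusted p = 0.00289) and 1.42 in mixed lung (adjusted p = 0.0213). Both calls were lost with some other mice left out, and the adjusted p in neutrophilic lung reached 0.419. Differences in neutrophilic lung were -0.39 for the cytoplasmic actin Actb (adjusted p = 0.516), 0.31 for skeletal Acta1 (adjusted p = 0.532), -0.86 for cardiac Actc1 (adjusted p = 0.206), -0.68 for Myh14 (adjusted p = 0.171) and -0.61 for Smtnl2, a smoothelin-like protein (adjusted p = 0.280). None of those 5 passed.

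Markers of other cells that whole lung holds were read beside these genes. In neutrophilic lung without mouse 7, 5 of 10 markers of blood endothelium fell, among them Kdr (-2.25, limma adjusted p = 0.000531) and Tek (-2.39, adjusted p = 0.000119), where 7.23% of all genes fell. On 12 arrays none of the 10 passed, with adjusted p of 0.133 for Kdr and 0.0760 for Tek. The mean of that list ran from 10.02 to 10.20 on control, 6.32 to 9.41 on eosinophilic, 8.90 to 9.44 on mixed and 8.68 to 9.14 on neutrophilic arrays. In mixed lung, over single mice left out, Kdr differed by -2.40 to -2.02 and Tek by -1.69 to -1.43. Their lowest limma adjusted p were 0.00114 and 0.0044, and both missed the threshold with some mice left out. Endothelial cells also make Ednrb and Foxf1, and the part of these markers in the falls above was not tested. Leukocyte markers rose for 2 of 8 in neutrophilic lung without mouse 7, where 2.24% of all genes rose. These were S100a8, by 2.66 (limma adjusted p = 0.00261), and S100a9, by 3.34 (adjusted p = 0.000811). Over single mice left out, the mixed differences were 1.92 to 2.65 for S100a8 (limma adjusted p from 0.0116 to 0.400). They were 2.19 to 3.14 for S100a9 (adjusted p from 0.00764 to 0.307). Means of the leukocyte list were 7.83 to 8.71 on control, 5.83 to 8.94 on eosinophilic, 8.67 to 9.48 on mixed and 8.37 to 9.99 on neutrophilic arrays. None of the 9 pericyte markers passed, with means of 6.55 to 6.69 on control, 5.62 to 6.39 on eosinophilic, 6.20 to 6.45 on mixed and 6.21 to 6.28 on neutrophilic arrays. Pdgfrb differed by -1.07 (adjusted p = 0.0896), Notch3 by -0.60 (adjusted p = 0.201) and Rgs5 by 0.18 (adjusted p = 0.732). No marker is listed at 0, since log2 array signals have a floor above it and no detection calls were used.

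**Figure D4:**
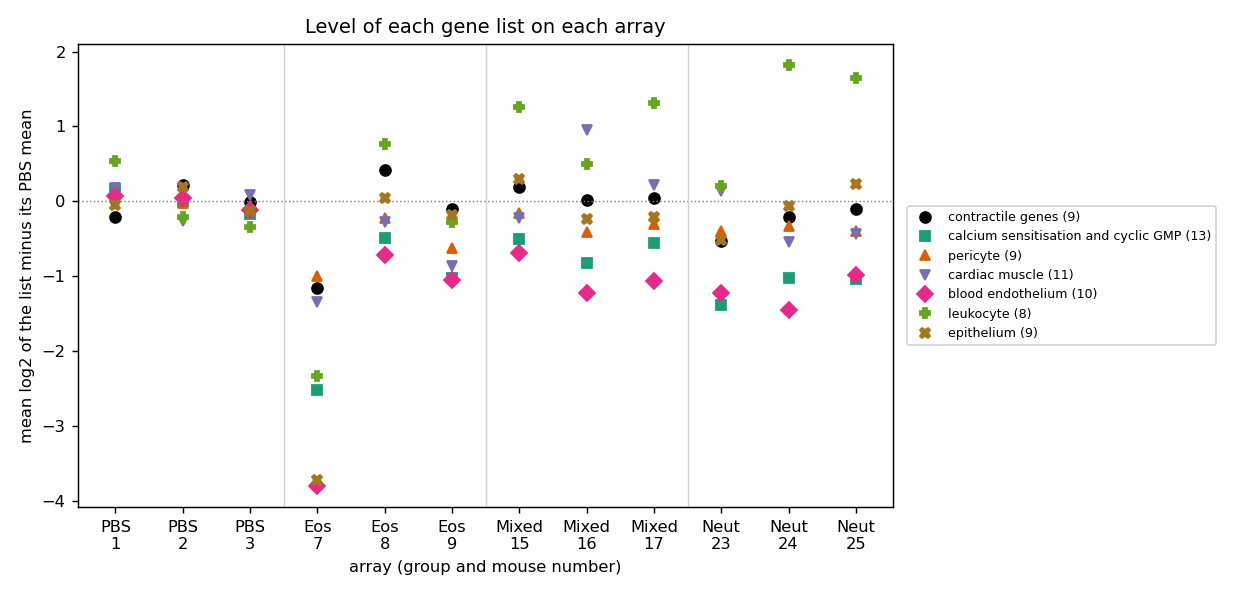
Mean log2 signal of 7 gene lists on each of the 12 arrays (x axis: group and mouse number), minus the mean of the same list over the 3 PBS arrays (y axis). Endothelial markers and the calcium sensitisation and cyclic GMP list lie below 0 on all HDM arrays, and the contractile genes lie closer to 0 than either on each of them.

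Markers of airway smooth muscle and myofibroblasts went both ways. Without mouse 7, Aspn (asporin) fell by 1.65 in neutrophilic lung (limma adjusted p = 0.0124) and Hhip, a hedgehog-binding protein, by 1.18 (adjusted p = 0.0225). Tnc, tenascin C of the injury matrix, rose by 1.31 in neutrophilic (adjusted p = 0.0143), 1.20 in mixed (adjusted p = 0.0463) and 1.52 in eosinophilic lung (adjusted p = 0.0419). On 12 arrays Tnc missed the threshold in all 3 models (adjusted p = 0.218, 0.522 and 0.250), and its eosinophilic difference, 0.84, ran from 0.49 to 1.52 over single mice left out. Counts in neutrophilic lung without mouse 7 were 3 lower and 1 higher of 7, where 7.23% of all genes fell and 2.24% rose. Only 1 of these, Aspn, passed on 12 arrays (limma adjusted p = 0.0462), where 1.45% of all genes fell. Its call was lost without any one control or neutrophilic mouse (adjusted p up to 0.215). Of 13 fibroblast markers 2 fell in neutrophilic lung without mouse 7, where 7.23% of all genes fell. These were Itga8 (-1.84, limma adjusted p = 0.00866) and Dcn (-0.85, adjusted p = 0.0447), and no fibroblast marker passed on 12 arrays. In eosinophilic lung Itga8 fell by 3.30 on 12 arrays (adjusted p = 0.0462) and by 2.42 without mouse 7 (adjusted p = 0.0171). That call on 12 arrays was lost without any one control mouse or eosinophilic mouse 9 (adjusted p up to 0.267). None of 11 cardiac, 11 skeletal muscle, 5 mesothelial or 9 epithelial markers passed in neutrophilic lung without mouse 7.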

How the data were processed

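Lungs were snap frozen, and 300 ng of total RNA per mouse was labelled and hybridised, per the labels' protocols. The deposited log2 signals, 1 per probe set, are the authors' RMA output; the submitters' processing notes name Affymetrix Expression Console for it, without versions. RMA combines background correction, normalization and probe summary, and compresses differences of weak genes; the deposited arrays still differed in SD. Values ran from 2.27 to 14.93, from which base 2 was inferred. Of 34760 probe sets, 21640 had a single symbol, and the one of highest mean stood for each of 19937 genes. Group means were fitted to all 12 arrays with limma 3.58.1 in R 4.3.3 (lmFit, eBayes without trend), with no batch term, since the labels give none. Each fit was repeated without eosinophilic mouse 7 and under the alternatives of the closing section, and the script was tested on simulated data. The number of arrays limits the precision: an exact permutation test of 3 against 3 cannot go below 0.1. Beside the 9 genes, each list supplied up to 4 genes by smallest p (3 for marker lists) plus genes always named, such as Srf and Chrm3. The 9 genes and the lists were chosen with earlier results of these data known. Promoters came from RefSeq (GRCm38.p6).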

Additional observations from a re-analysis of the deposited data

Results flagged for a closer look

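In 4 results every mouse of one model lay above the control mean and every mouse of another model below it, or the reverse, and none of these differences between models passed a limma test. Cnn1 was 0.60 lower in neutrophilic than in mixed lung (log2 difference -0.5962), from -0.52 and 0.07 against control (adjusted p = 0.9999, and 0.730 without mouse 7). Dcn, a fibroblast marker, was 2.26 higher in mixed than in eosinophilic lung (adjusted p = 0.295, and 0.462 without mouse 7) and had a difference of -1.01 between neutrophilic and mixed lung (adjusted p = 0.9999, and 0.429 without mouse 7). Myl7, a cardiac marker, was 1.78 higher in mixed than in eosinophilic lung (adjusted p = 0.251, and 0.375 without mouse 7).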

How the results depend on the processing

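No paired analysis was possible because the groups share no mouse numbers. The count of contractile genes past the threshold was 0 in each comparison under each processing setting tried and with each single mouse left out that was run for it, except without eosinophilic mouse 8, where it was 3 for eosinophilic against control (range 0 to 3 over single mice left out) and 2 for mixed against eosinophilic lung (0 to 2). The cause was not tested for any change below. The median log2 difference of the 9 genes in eosinophilic lung, -0.50 on 12 arrays, was 0.19 with quantile normalization, 0.54 with array SD as a covariate, 0.47 without mice 7, 9 and 23, and -0.89 to 0.29 over single mice left out. For mixed against eosinophilic lung it was -0.21 with array SD, -0.23 without those 3 mice and -0.085 to 0.72 over single mice. For neutrophilic against eosinophilic lung these were -0.50, -0.41 and -0.56 to 0.44. In eosinophilic lung estimates turned positive with quantile normalization for Acta2 (0.085), Myh11 (0.25) and Tagln (0.35). With array SD they were 0.54 for Acta2, 0.17 for Myh11, 0.62 for Tagln, 0.66 for Cnn1 and 0.72 for Des. Without mice 7, 9 and 23, which leaves 1 eosinophilic mouse assumed to vary like the other groups, they were 0.58, 0.094, 0.76, 0.82 and 0.13. Over single mice left out, the ranges were -1.74 to 0.13 for Acta2, -0.072 to 0.63 for Actg2, -1.07 to 0.023 for Tagln, -1.29 to 0.29 for Cnn1 and -1.02 to 0.33 for Des. In mixed lung Des was 0.043 with array SD, and single mice gave -0.044 to 0.25 for Acta2, -0.12 to 0.20 for Cnn1 and -0.43 to 0.14 for Des. In neutrophilic lung quantile normalization gave 0.094 for Des, 0.0026 for Myl9, 0.045 for Klf4 and 0.10 for Myl7. With array SD, Des was 0.22, Myl9 0.24, Klf4 0.045 and Actb 0.42. Without mice 7, 9 and 23, Des was 0.037 and Myl9 0.055. Single mice gave -0.58 to 0.037 for Des, -0.53 to 0.055 for Myl9, -0.028 to 0.41 for Rgs5 and -0.0019 to 0.46 for Srf. Smtn kept its sign in all of these settings in each HDM model. For single genes and lists, 1397 other values kept sign and side of the threshold, 138 newly passed, 51 no longer passed and 83 counts or medians moved. With 3 arrays a group and no detection calls, weak signals such as Myocd have the least support.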
